A study of Bos taurus with 54 samples.

Results

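The S100 calcium-binding alarmins described here were chosen by gene symbol: S100A8, S100A9, S100A12, S100A4, S100A6, S100A10 and S100A11. Of these 7 genes, 6 had a row among the 32637 genes counted in each library, and S100A6 was not analysed here. Whole blood of 15 Holstein male calves kept in climate-controlled rooms was taken in the morning, under thermoneutral conditions (control), and in the evening, directly after 12 h of heat stress. All samples shared the breed, the sex and a lysis of red blood cells with ammonium chloride before RNA isolation. From 29 RNA samples, 27 libraries were made with SMART-Seq v4 3′ DE from Takara (Takara) and 27 with QuantSeq 3′ from Lexogen (Lexogen), both of which read the 3′ end of polyadenylated RNA. Without animal 20, whose time differed between the sources, 13 control and 13 heat stress libraries remained per kit, with 12 animals at both times. The study reports more samples before heat exposure than after it, whereas the labels hold more evening than morning samples. If the calves in the study's table of libraries are in order of animal number, animals 7, 15, 23 and 29 also differ. For each, that table and the labels place the missing library at opposite times. Times here follow the labels, so the direction of every change rests on them. Because the control was always the morning sample, heat stress and time of day cannot be told apart.

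S100 proteins are small cytosolic proteins that bind calcium through EF-hand motifs, usually work as dimers, and change the activity of the proteins they bind. S100A8, S100A9 and S100A12, the calgranulins, are abundant in the cytosol of neutrophils and monocytes. When these cells are activated or damaged, calgranulins leave the cell and act as alarmins on Toll-like receptor 4 and on the receptor for advanced glycation end products. S100A4, S100A10 and S100A11 are made by many cell types and are best known as partners of non-muscle myosin and of annexins.

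All 6 genes lie on chromosome 3 of the ARS-UCD2.0 assembly, as do 14 of the 17 S100 genes in the files. The calgranulins are neighbours: S100A8 (gene ID 616818) spans chr3:17085831-17086812, S100A12 (282467) spans chr3:17102730-17104176 and S100A9 (532569) spans chr3:17115128-17117829. S100A4 (282343) lies before them at chr3:16824260-16826547. S100A11 (337886) and S100A10 (282466) lie further along, at chr3:18728742-18733582 and chr3:18762488-18773422. All 6 are annotated as protein coding, and the counts cover the exons of each gene as a whole.

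Reads counted on genes ranged from 5140595 to 20699030 in Takara and from 4516761 to 58521751 in Lexogen. The deepest library was the Lexogen heat stress library of animal 15, and values without it are given where it moves a result. No S100 gene named above had fewer than 203 counts in any library used for the time comparison. Antisense reads made up at most 1.23% of the counts of a gene in a kit. Levels are given as counts-per-million (CPM), relative to all counts on genes of the library. Levels of a gene are compared between samples, and ratios of genes within a library are compared between groups of libraries and not read as an order of the genes.

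The question of the main comparison was which of these genes differed between heat stress and control within each kit. In both kits the calgranulins and S100A11 were up-regulated after heat stress, by about 1.58 to 2.30 on the log2 scale. S100A4 and S100A10 did not pass the test in either kit. Counts were tested with the quasi-likelihood test of edgeR with time alone, and p-values were adjusted by Benjamini-Hochberg over all genes tested. At an adjusted p under 0.05, 4 of the 6 genes were called in Takara, where 28.9% of all 12620 genes tested were called, 18.4% as higher and 10.5% as lower. In Lexogen 4 of 6 were called as well, against 5.55% of 11108 genes, 5.09% as higher and 0.459% as lower. The median log2 fold change of the 6 genes was 1.88 in Takara and 1.90 in Lexogen, and that of all genes tested was -0.05 and -0.08.

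S100A8 is the smaller subunit of calprotectin, the S100A8 and S100A9 complex that holds zinc and manganese back from microbes. In Takara its level was lowest at 557, median 2082 and highest 2744 CPM in the control, and lowest at 861, median 7446 and highest 13239 CPM after heat stress. Of the 13 heat stress libraries, 8 lay above every control library, and the others overlapped with the control. The log2 fold change was 2.30 (SE 0.43, 95% interval 1.42 to 3.19, adjusted p = 0.000563). In Lexogen the control ranged from 293 to 2191 CPM with a median of 1067, and heat stress from 711 to 12606 CPM with a median of 2768. Here 7 of the 13 heat stress libraries lay above every control library, and the log2 fold change was 2.08 (SE 0.43, 95% interval 1.22 to 2.95, adjusted p = 0.00262).

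S100A9, the larger subunit of calprotectin, had a lowest level of 616, a median of 1682 and a highest of 2866 CPM in the Takara control libraries. After heat stress these values were 693, 5463 and 10801 CPM. The upper part of the heat stress group, 8 of 13 libraries, stood above every control, whereas the lowest library lay within the control range. The log2 fold change was 2.18 (SE 0.40, adjusted p = 0.000534). The Lexogen control libraries ranged from 71.7 to 924 CPM around a median of 301, and the heat stress libraries from 239 to 3957 CPM around 1303. Again 8 of 13 heat stress libraries exceeded every control, with a log2 fold change of 2.11 (SE 0.43, adjusted p = 0.00265).

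S100A12, a calgranulin that binds the receptor for advanced glycation end products, ran from 2416 through a median of 7062 to 12320 CPM in the Takara control. After heat stress it ran from 2183 through 25805 to 49856 CPM, so that the lowest library of both groups was a heat stress library while 8 of 13 exceeded every control. The log2 fold change was 2.29 (SE 0.42, adjusted p = 0.000521). In Lexogen the control spanned 333 to 3304 CPM with a median of 1323, and heat stress 447 to 14661 CPM with a median of 4766. There 7 of 13 heat stress libraries exceeded every control, and the log2 fold change was 2.002 (SE 0.43, adjusted p = 0.00351). S100A12 alone took a median of 0.706% of all counts on genes in the Takara control libraries and 2.58% in the heat stress libraries. For the 6 genes together these shares were 1.31% and 4.32% in Takara, and 0.323% and 1.01% in Lexogen.

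S100A11, which pairs with annexin A1 at membranes, had 561, 1536 and 2094 CPM as the lowest, median and highest level in the Takara control and 1620, 2769 and 5716 CPM after heat stress. All 13 heat stress libraries lay above the control median and 8 lay above every control. Its log2 fold change was 1.58 (SE 0.29, 95% interval 0.99 to 2.16, adjusted p = 0.000484). In Lexogen it was counted at 28.01 to 156 CPM in the control, with a median of 63.4, and at 57.5 to 772 CPM after heat stress, with a median of 188. The log2 fold change was 1.79 (SE 0.39, 95% interval 1.01 to 2.58, adjusted p = 0.00382), with 7 of 13 heat stress libraries above every control.

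S100A10, the partner of annexin A2, had Takara levels of 481 to 1347 CPM (median 1047) in the control and 598 to 1847 CPM (median 997) after heat stress. Its Lexogen levels were 198 to 346 CPM (median 279) and 79.6 to 443 CPM (median 255). The groups overlapped in both kits, and heat stress libraries lay above every control in 1 of 13 for Takara and 3 of 13 for Lexogen. The log2 fold change was 0.24 in Takara (SE 0.13, 95% interval -0.02 to 0.51, adjusted p = 0.157) and 0.06 in Lexogen (SE 0.16, 95% interval -0.27 to 0.40, adjusted p = 0.901). By CPM it was higher after heat stress in 4 of 12 Takara animals and 5 of 12 Lexogen animals, and on the TMM scale in 10 and 6, so its direction in Takara depended on the scaling.

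S100A4, which binds the heavy chain of non-muscle myosin, ranged from 26.7 to 112 CPM (median 80.9) in the Takara control and from 19.6 to 111 CPM (median 67.7) after heat stress. In Lexogen it ranged from 42.01 to 398 CPM (median 224) and from 79.9 to 387 CPM (median 189). No heat stress library exceeded the highest control in either kit. The log2 fold change was -0.11 in Takara (SE 0.20, 95% interval -0.52 to 0.31, adjusted p = 0.721) and -0.12 in Lexogen (SE 0.26, 95% interval -0.66 to 0.42, adjusted p = 0.883).

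**Figure D1:**
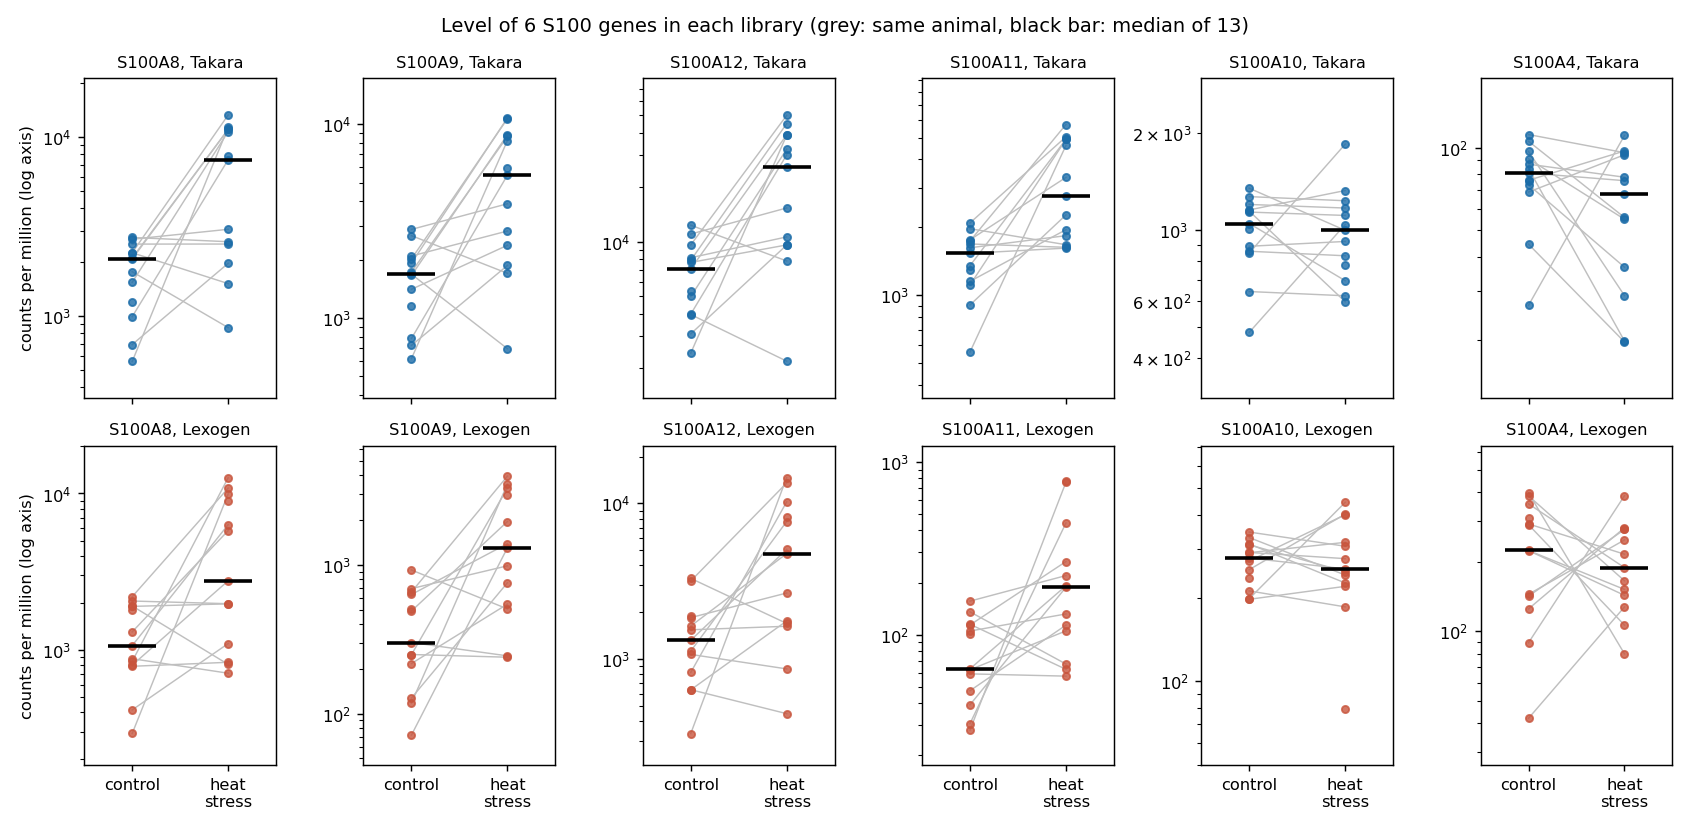
Level of each S100 gene in every library as counts-per-million on a log axis, in control and heat stress, for Takara (upper row) and Lexogen (lower row), with libraries of the same animal joined in grey and the median of 13 libraries as a black bar. For S100A8, S100A9, S100A12 and S100A11 the heat stress libraries spread upwards from the control range, with 7 or 8 of 13 above every control, whereas S100A10 and S100A4 overlapped.

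The size of the Takara changes depended on the scaling. With library sizes set to the plain sum of counts on genes (total counts) in place of TMM, the weighted scaling of edgeR, the median log2 fold change of all genes in Takara was -0.27 rather than -0.05. On this scale S100A8, S100A9, S100A12 and S100A11 were at 1.86, 1.76, 1.85 and 1.17, and relative to the median of all genes at 2.13, 2.03, 2.12 and 1.44. All 4 remained called, where 1303 of 12620 genes were called as higher and 2185 as lower. S100A10 was at 0.02 and S100A4 at -0.29 on this scale, and neither was called.

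Libraries of the same animal were joined in a fit with the animal as a block. In Takara the 4 up-regulated genes kept their call, with log2 fold changes of 1.72 for S100A8 (adjusted p = 0.0319), 1.74 for S100A9 (adjusted p = 0.0202), 1.81 for S100A12 (adjusted p = 0.0196) and 1.33 for S100A11 (adjusted p = 0.014). In Lexogen the estimates were 1.47 for S100A8 (adjusted p = 0.128), 1.82 for S100A9 (adjusted p = 0.0711), 1.44 for S100A12 (adjusted p = 0.135) and 1.17 for S100A11 (adjusted p = 0.171). Thus 0 of the 4 calls remained with the block in edgeR, while all 4 had an unadjusted p under 0.05. Over all genes, the block left 66 of 11108 called in Lexogen, against 616 without it, and 1566 had an unadjusted p under 0.05. In Takara 3163 of 12620 genes were called with the block. Leaving out the deepest Lexogen library moved the Lexogen estimates without the block to 1.94, 1.97, 1.91 and 1.45, all called, with S100A11 at an adjusted p of 0.0133 in edgeR. In that fit 454 of 11213 genes were called, 403 of them as higher.

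**Figure D2:**
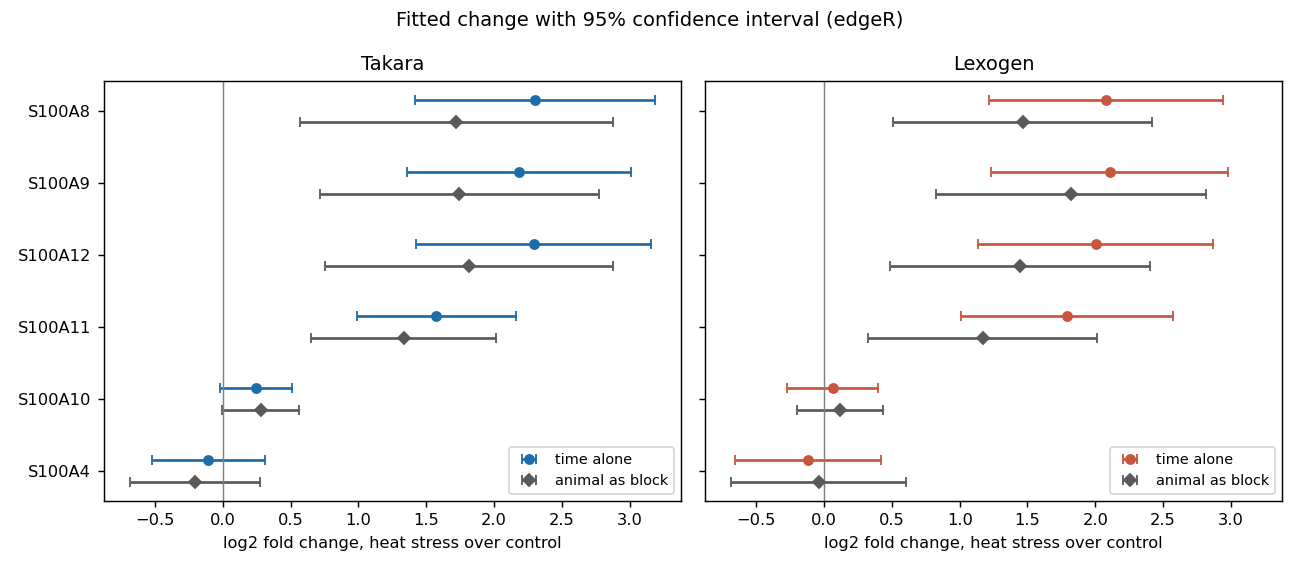
Fitted log2 fold change of heat stress over control (x axis) with its 95% confidence interval for each S100 gene in Takara (left) and Lexogen (right), with time alone (coloured circles) and with the animal as a block (grey diamonds). The 4 upper genes lie between 1.17 and 2.30 in both fits, and the intervals of S100A10 and S100A4 include 0.

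The animals differed widely in the size of the change. The log2 ratio of heat stress over control was taken for each animal from the CPM with 0.5 added. In Takara S100A8 ranged from -1.04 in animal 3 to 4.34 in animal 36, with a median of 1.94, and was higher after heat stress in 9 of 12 animals. The ratios were read as clusters. Animals 3, 41, 19, 12 and 14 lay between -1.04 and 0.18, and the other 7 between 1.505 and 4.34. The widest gap was the 1.43 between animal 36 and the next. The summed neutrophil, T cell and B cell markers after heat stress differed along with these clusters, apart from animal 32. The monocyte, erythroid and platelet sums overlapped between the clusters. In the Takara heat stress libraries the neutrophil sum was 749 to 2767 CPM in the 5 animals of the low cluster. It was 3409 to 4258 CPM in 6 of the 7 of the high cluster and 1612 CPM in animal 32 of that cluster. Against the control libraries, this sum rose in all 7 animals of the high cluster, from 466 CPM in animal 32. In the low cluster it fell in animals 3, 12, 14 and 41 and rose in animal 19, from 1321 to 2234 CPM. The T cell sum was 971 to 1823 CPM in the low cluster, 490 to 787 CPM in those 6 animals and 1618 CPM in animal 32. The part of these cell types in the clusters was not tested. S100A12 split the same 12 animals in the same way, with 5 between -0.86 and 0.48 and 7 between 1.63 and 4.002. S100A9 was higher in 10 of 12 animals, from -1.28 in animal 3 to 3.74 in animal 36. S100A11 was also higher in 10 of 12, from -0.24 in animal 41 to 3.04 in animal 36.

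In Lexogen the ratios of S100A8, S100A9, S100A12 and S100A11 were each higher after heat stress in 9 of 12 animals. S100A8 ranged from -1.24 in animal 41 to 5.08 in animal 36, with 5 animals at or below 0.08 and 7 at or above 1.41. Animals 41, 12, 19 and 3 stood in the low cluster of S100A8 in both kits, and animals 16, 18, 32, 36 and 40 in the high cluster in both. Animal 14 was at 0.18 in Takara and at 1.79 in Lexogen. Animal 36 had the highest ratio of these 4 genes in both kits, up to 5.46 for S100A12 in Lexogen. Correlations over all animals were computed but are not given for these 4 genes, because the S100A8 and S100A12 ratios in Takara were read as clusters. The split into 5 and 7 animals was read from the values and not tested. Among these 4 genes in Takara, only S100A12 had its widest gap between the 5 and the 7 animals. The widest gap set apart animal 36 for S100A8 and S100A11, and animals 3 and 41 for S100A9. In Lexogen the widest gap of S100A8 set apart animals 16 and 36.

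**Figure D3:**
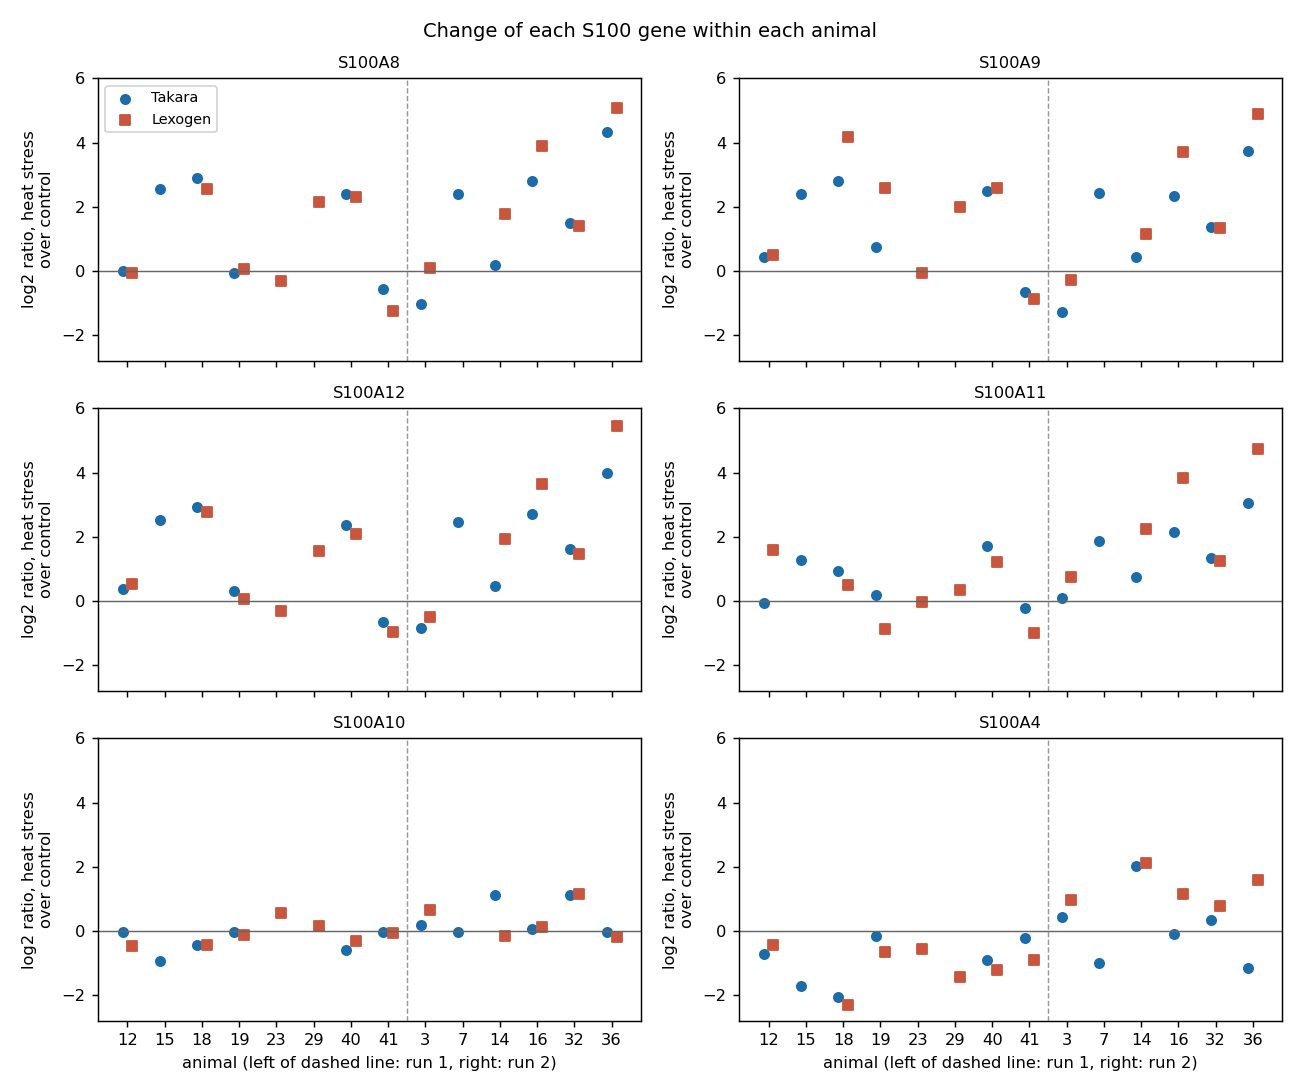
Log2 ratio of heat stress over control (y axis) for each animal (x axis) and each S100 gene in Takara (blue circles) and Lexogen (red squares), with animals of the first run of sample numbers left of the dashed line and those of the second run right of it. Animals 3 and 41 lay below 0 for S100A9 and S100A12 in both kits, animal 36 had the highest ratios of the 4 up-regulated genes, and the Lexogen ratios of S100A4 lay below 0 on the left and above 0 on the right.

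The balance among the calgranulins within a library differed little between control and heat stress. In Takara the log2 ratio of S100A12 to S100A8 was 1.90 ± 0.35 (SD, n = 13) in the control and 1.94 ± 0.31 (SD, n = 13) after heat stress. The ratio of S100A9 to S100A8 was -0.13 ± 0.32 in the control and -0.16 ± 0.26 after heat stress (SD, n = 13 each), so that both ratios moved by less than 1 SD. In Lexogen the ratio of S100A12 to S100A8 was 0.22 ± 0.37 and 0.20 ± 0.55, and that of S100A9 to S100A8 was -1.77 ± 1.04 and -1.44 ± 0.44 (SD, n = 13 each). By contrast, the Takara log2 ratio of S100A11 to S100A10 was 0.50 ± 0.36 in the control and 1.59 ± 1.11 after heat stress (SD, n = 13 each). These ratios describe the balance of counts and were not tested.

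The sample numbers in the labels fall into 2 runs of different animals, which no label explains, and the comparison was repeated within each. In Takara the 14 libraries of run 1 and the 12 of run 2 gave S100A8 estimates of 2.20 (edgeR, adjusted p = 0.0107) and 2.44 (edgeR, adjusted p = 0.0466). S100A12 was at 2.19 (adjusted p = 0.00973) and 2.43 (adjusted p = 0.0442), and S100A11 at 1.31 (adjusted p = 0.0217) and 1.94 (adjusted p = 0.0365). S100A9 was at 2.20 (adjusted p = 0.00882) in run 1 and at 2.16 (adjusted p = 0.0513) in run 2, where it missed the threshold. Over all genes tested in Takara, 2630 of 12791 were called in run 1 and 931 of 12661 in run 2, 1879 and 608 as higher. In Lexogen 0 of the 6 S100 genes passed within a run in edgeR, and 5 in run 1 and 4 in run 2 had an unadjusted p under 0.05. Over all genes tested, 402 of 11532 were called in run 1 and 0 of 11459 in run 2. An unadjusted p under 0.05 was reached by 1619 and 1275 genes. As no gene at all was called in run 2, the 0 there is not particular to the S100 genes. The estimates in run 1 and run 2 were 1.74 (adjusted p = 0.0511) and 2.69 (adjusted p = 0.144) for S100A8, and 1.957 (adjusted p = 0.0574) and 2.37 (adjusted p = 0.144) for S100A9. S100A12 was at 1.59 (adjusted p = 0.071) and 2.74 (adjusted p = 0.144), and S100A11 at 1.32 (adjusted p = 0.158) and 2.60 (adjusted p = 0.11).

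The estimates of S100A4 and S100A10 had opposite signs in the runs, and none of them passed the test. S100A4 was lower after heat stress in 6 of 6 Takara animals and 7 of 7 Lexogen animals of run 1, with a fitted log2 fold change of -0.45 (edgeR, adjusted p = 0.143) and -0.70 (edgeR, adjusted p = 0.149). In run 2 it was higher in 3 of 6 Takara animals and 5 of 5 Lexogen animals, with 0.34 (edgeR, adjusted p = 0.523) and 0.80 (edgeR, adjusted p = 0.479). The difference between the runs, run 2 minus run 1, was 0.77 in Takara (SE 0.40, edgeR, adjusted p = 0.341), where 2.27% of 13767 genes were called. In Lexogen it was 1.497 (SE 0.48, unadjusted p = 0.00385, edgeR, adjusted p = 0.336), where 0.0222% of 13484 genes were called. With the animal as a block this Lexogen difference of S100A4 was 2.23 (edgeR, adjusted p = 0.0229), 1 of 3 genes called among 13484, and with total counts it was 1.79 (edgeR, adjusted p = 0.192) and not called. The median difference of all genes was 0.06 without the block, 0.58 with it and 0.29 with total counts. This test was chosen after the ratios had been seen. S100A10 was at -0.02 in run 1 and 0.58 in run 2 in Takara and at -0.08 and 0.29 in Lexogen, and no difference between the runs passed the test for this gene.

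For S100A4 and S100A10 the ratios per animal were related in Takara (n = 12, Pearson r = 0.84, permutation p = 0.00063, adjusted p = 0.00197; Spearman rho = 0.89, permutation p = 0.00019, adjusted p = 0.000758). The tests were two-sided with 100000 resamples, and the adjustment covered 72 tests of 36 relations. Without the 2 animals farthest from the median of S100A4, r was 0.78, and within the runs it was 0.74 (n = 6) and 0.80 (n = 6). On the TMM scale r was 0.67 (permutation p = 0.0219) with rho 0.45 (permutation p = 0.148), and r was -0.12 in run 1, so the relation depended on the scaling. In Lexogen the S100A4 ratios formed the clusters described above, and within the 7 animals of run 1 the r with S100A10 was 0.32. The S100A10 ratios of 10 animals in both kits had r = 0.62 (permutation p = 0.0416, adjusted p = 0.0713) and rho = 0.66 (permutation p = 0.0431, adjusted p = 0.0721), and r was 0.68 without the 2 farthest animals. Each run held 5 of these animals, too few for a value within runs.

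Both kits were used on the same RNA for 24 samples, 12 control and 12 heat stress, which gave a direct comparison of the kits. In a fit with the RNA sample as a block, Takara against Lexogen, 5 of the 6 S100 genes were called, 4 as higher and 1 as lower, where 71.6% of 13354 genes were called, 45.3% as higher and 26.3% as lower, and the median of all genes was 0.48. S100A11 had the largest difference, 3.75 on the log2 scale (SE 0.14, edgeR, adjusted p = 7.35e-21), and its CPM was higher in Takara in 24 of 24 samples. S100A12 was higher by 1.88 (SE 0.08), S100A9 by 1.62 (SE 0.12) and S100A10 by 1.597 (SE 0.08), each in 24 of 24 samples. S100A4 differed by -1.85 (SE 0.14, edgeR, adjusted p = 2.31e-13) and was higher in Takara in 1 of 24 samples. S100A8 was at 0.16 (SE 0.09, edgeR, adjusted p = 0.104), and its CPM was higher in Takara in 21 of 24 samples. Its direction was -0.08 with sense counts, whereas it was called at 0.28 with the DESeq2 size factors and at 0.45 with total counts. The median of all genes was 0.30, 0.61 and 0.77 in these fits. Relative to this median S100A8 was at -0.38, -0.33 and -0.32, and at -0.32 with TMM.

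**Figure D4:**
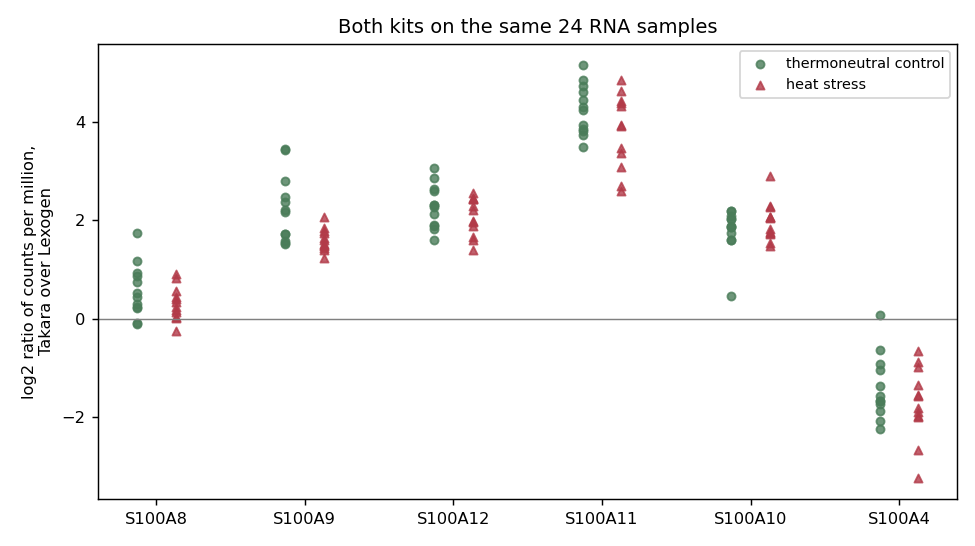
Log2 ratio of counts-per-million, Takara over Lexogen (y axis), for each S100 gene in 24 RNA samples sequenced with both kits, 12 control (green circles) and 12 heat stress (red triangles). S100A11 lies highest, between 2.60 and 5.16, S100A8 lies between -0.24 and 1.74 and above 0 in 21 of 24 samples, and S100A4 lies below 0 in 23 of 24 samples.

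The heat effect itself was compared between the kits in the same 24 RNA samples with the interaction of kit and time. The difference, Takara minus Lexogen, was called for none of the S100 genes and for 0 of 13354 genes (edgeR, 526 at an unadjusted p under 0.05, percent called 0). S100A9 had the largest difference, -0.61 (SE 0.20, 95% interval -1.02 to -0.19, unadjusted p = 0.00578, edgeR, adjusted p = 1). For S100A8 the interval ran from -0.57 to 0.13, for S100A12 from -0.49 to 0.15, for S100A11 from -0.90 to 0.07, for S100A10 from -0.13 to 0.54 and for S100A4 from -0.80 to 0.28.

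Genes that work with the S100 proteins were read from the same fits. Of 8 receptors and co-receptors, 7 were tested in each kit. In Takara 4 were up-regulated and 0 down-regulated, with a median log2 fold change of 0.44 beside -0.05 over all genes tested, of which 18.4% were called as higher and 10.5% as lower. In Lexogen 3 were up-regulated and 0 down-regulated, with a median of 0.04 beside -0.08 over all genes, of which 5.09% were called as higher and 0.459% as lower. TLR4, the Toll-like receptor that binds calprotectin, rose by 1.62 in Takara (SE 0.28, edgeR, adjusted p = 0.000418) and by 1.19 in Lexogen (SE 0.35, edgeR, adjusted p = 0.0351). LY96, its co-receptor MD-2, rose by 1.54 (SE 0.33) and 1.10 (SE 0.29). AGER, which encodes the receptor for advanced glycation end products, rose by 1.14 (SE 0.24) and 2.31 (SE 0.68), from low levels of 11.8 and 1.37 CPM at the control median. CD14, another co-receptor of TLR4, was at 0.26 (edgeR, adjusted p = 0.425) and -0.07 (edgeR, adjusted p = 0.971). NPTN, a receptor of S100A8 and S100A9, was called in Takara at 0.30 (edgeR, adjusted p = 0.0339) but was at 0.02 and not called with total counts. BSG was at -0.11 and -0.39 and CD69 at 0.44 and -0.12, and none of these passed the test. CD36 was too low to be tested.

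Of 6 binding partners inside the cell, 3 were up-regulated in both kits. Over all genes tested, 18.4% were called as higher in Takara and 5.09% in Lexogen. The median log2 fold change of the 6 partners was 0.57 in Takara and 0.45 in Lexogen, beside -0.05 and -0.08 over all genes. ANXA1, the annexin that S100A11 binds, rose by 2.13 in Takara (SE 0.42, edgeR, adjusted p = 0.000762) and by 1.65 in Lexogen (SE 0.38, edgeR, adjusted p = 0.00616), and in both kits it remained called with the animal as a block, at adjusted p = 0.0143 and 0.0252. ANXA11 rose by 0.83 (SE 0.20) and 0.72 (SE 0.22). MYH9, the non-muscle myosin heavy chain bound by S100A4, rose by 0.82 in both kits (SE 0.24 and 0.20), but its Takara call was lost with total counts (0.47, edgeR, adjusted p = 0.0589). ANXA2, the annexin bound by S100A10, was at 0.33 (edgeR, adjusted p = 0.0574) and -0.38 (edgeR, adjusted p = 0.722). AHNAK was at -0.07 and -0.16 and CACYBP at 0.30 and 0.19, without passing the test.

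Of 5 myeloid transcription factors, 5 were tested in Takara and 2 in Lexogen, where CEBPA, CEBPB and CEBPE were too low. CEBPD, which drives acute-phase and myeloid genes, rose by 2.42 in Takara (SE 0.57, edgeR, adjusted p = 0.00267) and by 2.37 in Lexogen (SE 0.42, edgeR, adjusted p = 0.00104). SPI1, the myeloid factor PU.1, rose by 1.15 (SE 0.27) and 1.07 (SE 0.30). CEBPA rose by 1.77 and CEBPE by 1.52 in Takara. CEBPE was no longer called with total counts (1.07, edgeR, adjusted p = 0.0729), and CEBPA was not called with the animal as a block (1.29, edgeR, adjusted p = 0.11). CEBPB was at 0.53 (edgeR, adjusted p = 0.465). With total counts TLR4 (adjusted p = 0.0538), AGER (adjusted p = 0.0555) and ANXA11 (adjusted p = 0.0819) missed the threshold in Lexogen, with edgeR. ANXA1 was the one gene among the 15 tested receptors, partners and factors in Lexogen that was called with the animal as a block. Over all genes, 66 of 11108 were called in that fit.

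**Figure D5:**
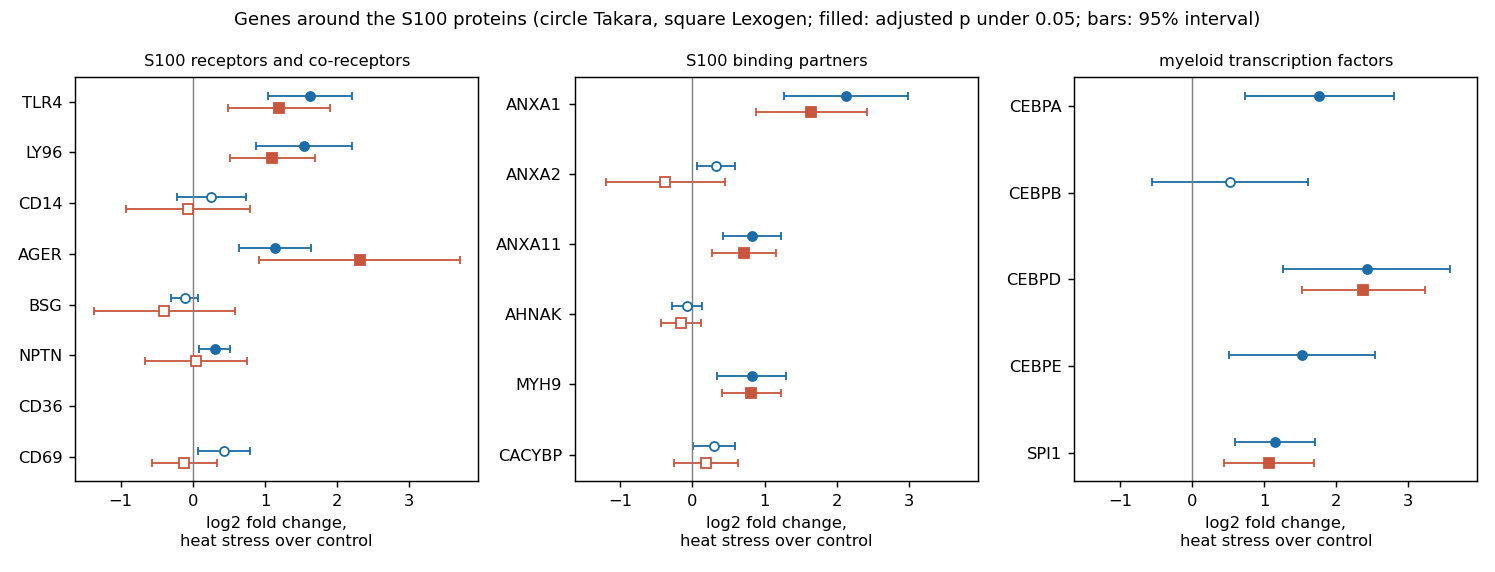
Log2 fold change of heat stress over control (x axis) with its 95% confidence interval for receptors, binding partners and transcription factors in Takara (blue circles) and Lexogen (red squares), filled where the adjusted p was under 0.05. TLR4, LY96, AGER, ANXA1, ANXA11, MYH9, CEBPD and SPI1 were up-regulated in both kits, whereas CD14, ANXA2, BSG, AHNAK and CACYBP were not called in either.

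Some of the genes that mark neutrophils, the main source of calgranulins in blood, were up-regulated as well. Of 8 neutrophil markers, 6 were tested in Takara and 4 in Lexogen, and 4 and 2 of them were up-regulated, where 18.4% and 5.09% of all genes tested were called as higher. CXCR2, a chemokine receptor, rose by 1.80 in Takara and 1.35 in Lexogen, and MMP9, a granule protease, by 2.44 and 2.21. In Lexogen neither was called with the block (edgeR, adjusted p = 0.0717 and 0.256). CSF3R was at 0.51 (edgeR, adjusted p = 0.164) and 0.80 (edgeR, adjusted p = 0.166). ELANE, a granule protease made by neutrophil precursors, was at -0.62 in Takara (edgeR, adjusted p = 0.224), with a median of 9.18 CPM in the control and 3.95 CPM after heat stress. MPO was too low to be tested, with medians of 0.27 and 0.152 CPM in Takara. The summed level of the list ran from 466 to 2908 CPM in the Takara control and from 749 to 4258 CPM after heat stress, and from 325 to 1604 CPM and from 315.8 to 3078 CPM in Lexogen. The part of these markers in the S100 result was not tested, and in bulk blood more cells of a type and more RNA per cell cannot be told apart.

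The counts of other markers stand beside 18.4% of all genes called as higher and 10.5% as lower in Takara with edgeR. In Lexogen these shares were 5.09% and 0.459%, so 0 lower calls in a short list say little there. An unadjusted p under 0.05 in edgeR was reached by 5166 of 12620 genes in Takara and 1877 of 11108 in Lexogen. Of 6 monocyte markers, 2 were up-regulated in Takara, VCAN (0.60) and CD68 (0.76), and 0 in Lexogen with edgeR or DESeq2, where 2 had an unadjusted p under 0.05. Both calls were lost with total counts and with the animal as a block. Their summed level ran from 133 to 794 CPM in the Takara control and from 355 to 668 CPM after heat stress. Of 6 T cell markers, CD3D, CD3E and CD3G fell in Takara, by 0.48, 0.55 and 0.45 on the log2 scale, and 0 were called in Lexogen with edgeR or DESeq2, with 0 at an unadjusted p under 0.05 in edgeR. The T cell sum was 1069 to 2344 CPM in the Takara control and 490 to 1823 CPM after heat stress. Among natural killer cell markers NCR1 rose in both kits, by 1.20 and 1.55 (not called with the block in Lexogen, edgeR, adjusted p = 0.263), and NCR3 fell by 0.37 in Takara. Of the markers tested, 0 of 5 for B cells, 0 of 4 for platelets, 0 of 2 for the erythroid lineage and 0 of 1 for eosinophils were called in either kit with edgeR. At an unadjusted p under 0.05 these counts were 2, 0, 0 and 0 in Takara and 0, 0, 1 and 0 in Lexogen, and DESeq2 called 1 platelet marker in Takara. HBA was at 0 in all Lexogen libraries, and CCR3 was the eosinophil marker measured. The part of these cell types was likewise not tested.

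Likeness was measured as the Pearson r of log2 TMM levels across the 26 Takara libraries, with each gene centred on the mean of its time, and is given as a description. Libraries share their depth and their cell makeup, so a high r can arise for many pairs of genes. S100A8, S100A9 and S100A12 were close to each other, with r of 0.97 for each pair in Takara and from 0.82 to 0.94 in Lexogen (n = 26). S100A11 had r of 0.87 to 0.91 with them in Takara and 0.61 to 0.82 in Lexogen. S100A4 and S100A10 had r between -0.36 and -0.21 with the calgranulins in Takara. In Lexogen r was 0.17 to 0.28 for S100A4, the opposite sign, and -0.42 to -0.37 for S100A10.

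Over all other genes tested, the most alike to S100A8 were TCN1 (r = 0.98 in Takara, 0.90 in Lexogen), which encodes a vitamin B12 binding protein of neutrophil granules, NFAM1 (0.97 and 0.83) and C7H19orf38 (0.97 and 0.69). S100A9 was most like LOC101903832 (0.98 and 0.78), NIBAN1 (0.97 and 0.87) and UPP1 (0.97 and 0.75). S100A12 was most like TCN1 (0.97 and 0.92), DYSF (0.96 and 0.74) and DAGLB (0.96 and 0.75). S100A11 was most like QPCTL (0.98 and 0.33), LGALS3BP (0.98 and 0.88) and GYS1 (0.97 and 0.75). S100A4 was nearest to COLGALT1 (0.88 and 0.68), MESD (0.88 and 0.58) and SLC12A7 (0.87 and 0.44), and S100A10 to DUSP11 (0.83 and 0.48), COPS8 (0.83 and 0.09) and SPCS2 (0.82 and 0.24). The nearest genes of S100A8, S100A9, S100A12 and S100A11 had an r of at least 0.69 in Lexogen apart from QPCTL, whereas those of S100A10 did not exceed 0.48. The genes were picked by their r in Takara, and the kits shared 24 RNA samples, so the Lexogen values are no independent check.

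The 11 other S100 genes were mostly low. In Takara 4 passed the filter on low counts, and S100A13 fell by 0.81 on the log2 scale (SE 0.26, edgeR, adjusted p = 0.0195), from a median of 130.8 to 58.8 CPM. In Lexogen S100A1 and S100A13 were tested, and S100A13 was at -0.36 (edgeR, adjusted p = 0.767). S100A1, S100A2 and S100A7 were at -0.42, 0.06 and 0.20 in Takara and did not pass the test.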

How the data were processed

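Per the labels and the methods of the study, the authors trimmed forward reads with Trimmomatic 0.39, checked them with FastQC 0.11.9 and MultiQC 1.14, mapped them with STAR 2.7.10b to ARS-UCD2.0 and deposited raw gene counts without normalization. Each file holds unstranded, sense and antisense counts. The unstranded counts were used here. The 4 totals above the genes (unmapped, multimapped, featureless and ambiguous reads) stayed out of library sizes, and 42.1% to 67.8% of the reads of a library were counted on genes. Of the gene IDs, 30271 matched a symbol of the RefSeq table of the same assembly, from which positions were taken. Since the libraries had no unique molecular identifiers, copies made by PCR could not be removed from the counts.

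Genes kept by filterByExpr were fitted with edgeR 4.0.16 (R 4.3.3) with TMM normalization and the quasi-likelihood test, per kit, with time alone as in the study's model. Called means an adjusted p under 0.05 over all genes tested. Interactions with kit (RNA sample as block) and with run were tested in the same way. The alternatives in edgeR were other size factors, total counts, no filter, sense counts, an animal block, a run term, each run alone, complete pairs, animal 20 as labelled, and the Lexogen libraries without the deepest. A further alternative used DESeq2 1.42.0 on all genes with at least 1 count. The steps were tested on simulated data. Samples with the same animal number came from the same calf, which is where the pairing comes from. Their deviations from the group means correlated above 0.1 in 11 of 12 animals in Takara (median 0.23) and in 1 of 12 in Lexogen (median 0.03).

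Groups and kits came from the sample labels. No 2 libraries were identical (0 pairs). Named genes were the S100 genes, fixed lists of receptors, partners, transcription factors and cell markers, any other S100 gene that passed, and the 3 genes most alike to each S100 gene. The S100 genes and lists were chosen with earlier results of these data known. Variants and raw reads were not analysed here.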

Additional observations from a re-analysis of the deposited data

Results flagged for a closer look

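Animal 20 entered the comparison of the times only in the alternative with it as labelled. The labels gave its only sample as heat stress and another source of the study did not. Its Takara library held S100A8 at 15189 CPM, S100A9 at 8580 CPM, S100A12 at 45326 CPM and S100A11 at 5234 CPM, each above the highest Takara control library (2744, 2866, 12320 and 2094 CPM). Its Lexogen library held S100A8 at 14490 CPM, S100A9 at 2514 CPM, S100A12 at 17238 CPM and S100A11 at 1072 CPM, again above the highest control library (2191, 924, 3304 and 156 CPM). For S100A8 both libraries, and in Lexogen also S100A12 and S100A11, exceeded the highest of the 13 heat stress libraries. S100A4 (39.3 and 323 CPM) and S100A10 (1203 and 252 CPM) lay within the control range.

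The heat effect on S100A4 differed between the runs of sample numbers in Lexogen by 1.497 on the log2 scale, run 2 minus run 1, with 7 of 7 animals lower in run 1 and 5 of 5 higher in run 2. The unadjusted p was 0.00385 and the adjusted p over all genes 0.336 in edgeR. With the animal as a block the adjusted p was 0.0229 in edgeR, where the median difference of all genes was 0.58. With total counts the adjusted p was 0.19 in edgeR. The test was chosen after the ratios per animal had been seen. Takara showed 0.77 in the same direction, with an adjusted p of 0.341 in edgeR.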

How the results depend on the processing

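In Takara the 4 calls held under all alternatives run except run 2 alone, where S100A9 missed the threshold, and S100A8 ranged from 1.72 to 2.45, S100A9 from 1.74 to 2.25, S100A12 from 1.81 to 2.43 and S100A11 from 1.17 to 1.94. In Lexogen the 4 genes ranged from 1.17 to 2.74, and 0 of them were called with the animal as replicate block, in run 1 alone or in run 2 alone. The block changed no Takara call of the 6 genes. Counts of all genes called were 3646 in Takara and 931 in run 2 alone. Lexogen had 616, against 3273 without the filter, 1006 with DESeq2, 66 with the replicate block, 402 in run 1 alone and 0 in run 2 alone (edgeR, 1275 at an unadjusted p under 0.05). With total counts as library size the Takara calls were 1303 higher and 2185 lower, against 2325 and 1321 with TMM. The difference between runs in Takara was called for 312 genes, and for 158 with total counts, 146 without the filter and 171 with the replicate block. For the difference between runs in Lexogen, S100A4 was the 1 S100 gene called with the block, among 3 of 13484 genes, and 0 S100 genes were called with TMM or total counts without it (edgeR).

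Signs turned for genes that were not called. S100A4 turned to 0.34 (Takara) and 0.80 (Lexogen) in run 2 alone, and S100A10 to -0.015 and -0.078 in run 1 alone. S100A8 turned to -0.078 between the kits with sense counts, and S100A9 to 0.0697 in the Takara run difference with total counts. Relative to the median of all genes, S100A8 was at -0.38 there, against -0.32 in the main fit. S100A9 was at -0.11 by this measure, against -0.13 in the main fit. The S100A10 relation between kits fell to r = 0.38 on the TMM scale (permutation p = 0.273). The cause of these shifts was not tested. Runs alone held fewer samples. The 6 genes had at least 203 counts per library. CEBPA, CEBPB and CEBPE did not pass the filter on low counts in Lexogen, and the part of depth in this was not tested.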
